A study of Mus musculus with 24 samples.

Results

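The 36 interferon response genes described here were followed across 24 samples of whole lung RNA from C57BL/6 mice aged 9 to 12 weeks. They were chosen by symbol, as genes known to be induced by interferon, and each was read from its array feature with the highest mean over all arrays. All 36 were measured, out of 20728 named genes on the arrays, and 13 of them had several features. The groups were bleomycin with gapmer 1 (n = 5), bleomycin with gapmer 3 (n = 5), bleomycin with a control gapmer (n = 5), PBS with gapmer 1 (n = 3), PBS with gapmer 3 (n = 3) and PBS with the control gapmer (n = 3). Every group had thus received a gapmer, an antisense oligonucleotide with a DNA core through which the paired RNA is cut by RNase H. Gapmers 1 and 3 were directed against Dnm3os, a long noncoding RNA, and bleomycin breaks DNA and is used to induce lung fibrosis in mice. The sources used here do not give dose, route, time after injury or sex.

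Interferons are secreted proteins that alert cells to viruses and to misplaced nucleic acid. Type I interferons signal through Ifnar1 and Ifnar2 to a complex of STAT proteins and IRF9, which binds the interferon-stimulated response element (ISRE). Interferon gamma, made mainly by T and NK cells, signals through Ifngr1 and Ifngr2 to STAT dimers, which bind the gamma-activated site (GAS). Many interferon-induced genes carry one or both elements, and their products sense viral RNA, degrade it, block its translation or restrain intracellular pathogens.

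After bleomycin under the control gapmer Isg15, Oas1a and Ifit1 were higher, and Gbp2 and Irf1 lower, than in PBS lungs. The Gbp2 call was lost in some alternative settings, given below. The upstream sequences of these 5 members are shown, picked because they carry an ISRE or GAS match and their genes changed in opposite directions. Each is the 120 bases before the RefSeq gene start (GRCm38.p6), 5′ to 3′ on the gene's own strand, with matches to an ISRE core (GAAANNGAAA, or TTTCNNTTTC on the other strand) or a GAS core (TTCNNNGAA, its own reverse complement) in capitals. Adjacent ISRE matches overlap and are printed as 1 run.
Isg15, chr4:156200819-156200938, minus strand, ISRE matches: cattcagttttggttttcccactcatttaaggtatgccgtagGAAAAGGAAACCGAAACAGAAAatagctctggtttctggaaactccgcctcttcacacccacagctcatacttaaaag
Oas1a, chr5:120907526-120907645, minus strand, GAS and then ISRE matches: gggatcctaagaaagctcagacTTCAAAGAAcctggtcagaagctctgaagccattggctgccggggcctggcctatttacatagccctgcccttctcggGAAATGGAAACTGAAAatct
Ifit1, chr19:34640769-34640888, plus strand, ISRE matches on the other strand: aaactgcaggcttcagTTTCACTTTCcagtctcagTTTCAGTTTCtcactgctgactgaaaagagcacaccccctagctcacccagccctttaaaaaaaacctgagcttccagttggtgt
Gbp2, chr3:142620543-142620662, plus strand, ISRE match on the other strand: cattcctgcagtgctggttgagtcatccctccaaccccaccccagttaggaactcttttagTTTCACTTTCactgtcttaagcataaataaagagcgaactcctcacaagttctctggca
Irf1, chr11:53769894-53770013, plus strand, GAS match: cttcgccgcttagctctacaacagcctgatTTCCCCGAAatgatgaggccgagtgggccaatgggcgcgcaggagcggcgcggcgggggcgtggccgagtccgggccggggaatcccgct
Promoters were matched for 26 of the 36 members, and 250 upstream bases were searched on both strands. An ISRE core was found in any promoter of 12 of the 26 (46.2%), against 3.46% of all 27025 genes with a promoter, and a GAS core in 6 (23.1%), against 8.13%. Counted by single promoters, of which there were 32851, the shares over all genes were 2.98% and 7.02%. Isg15 held 3 ISRE matches within 22 bases, Oas1a held 2 close to its start, and Irf1 held a GAS match and no ISRE match. Neither core was found for 11 of the 26, among them Irf7, Oasl1 and Oasl2, which were higher after bleomycin. Ifit3, Bst2, Rsad2, Stat2 and Igtp held an ISRE match and were not called. The members were chosen as interferon-induced genes, so these shares describe the list, and a match is not shown to be a bound site.

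The deposited values were log2 intensities. The 36 members had means from 6.84 to 13.95 over all arrays, all above 6.11, the 25th percentile of gene means. Arrays correlated with each other at 0.974 to 0.998, RNA integrity numbers ran from 8.5 to 10.0, and the mean of 6 lung genes, Sftpc and Scgb1a1 among them, was 15.9 to 16.3 in every group. Dnm3os lay at 6.18 and 6.40 with gapmers 1 and 3 in bleomycin lungs, against 6.90 with the control gapmer, and both differences passed (-0.72 and -0.50). In PBS lungs it lay at 5.89 and 6.10, against 6.34, and these differences did not pass (-0.45 and -0.25, limma adjusted p = 0.0882 and 0.577). The labels do not say that samples are separate animals, so the p-values reflect only sample-to-sample spread, which may be technical. In whole lung, fewer cells of a type and less RNA per cell cannot be told apart.

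Some arrays stood apart at features near the centre of the array, and 6 members are read there. The array layout was inferred from the feature numbers, and a local median over the surface gave each feature's trend on each array. The SD of that trend over arrays exceeded 0.15 for 759 genes (3.66% of all), among them Parp9 (0.44), Isg20 (0.32), Oasl1 (0.27), Irgm1 (0.23), Xaf1 (0.19) and Oasl2 (0.18). Over those 759 genes the mean trend was lowest on bleomycin control replicate 5 (-0.71), followed by bleomycin gapmer 1 replicate 3 (-0.56), PBS gapmer 3 replicate 2 (-0.50) and PBS control replicate 2 (-0.47). Results for these 6 genes are therefore given with the deposited values and with the position trend removed, a step chosen after seeing the data.

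**Figure D1:**
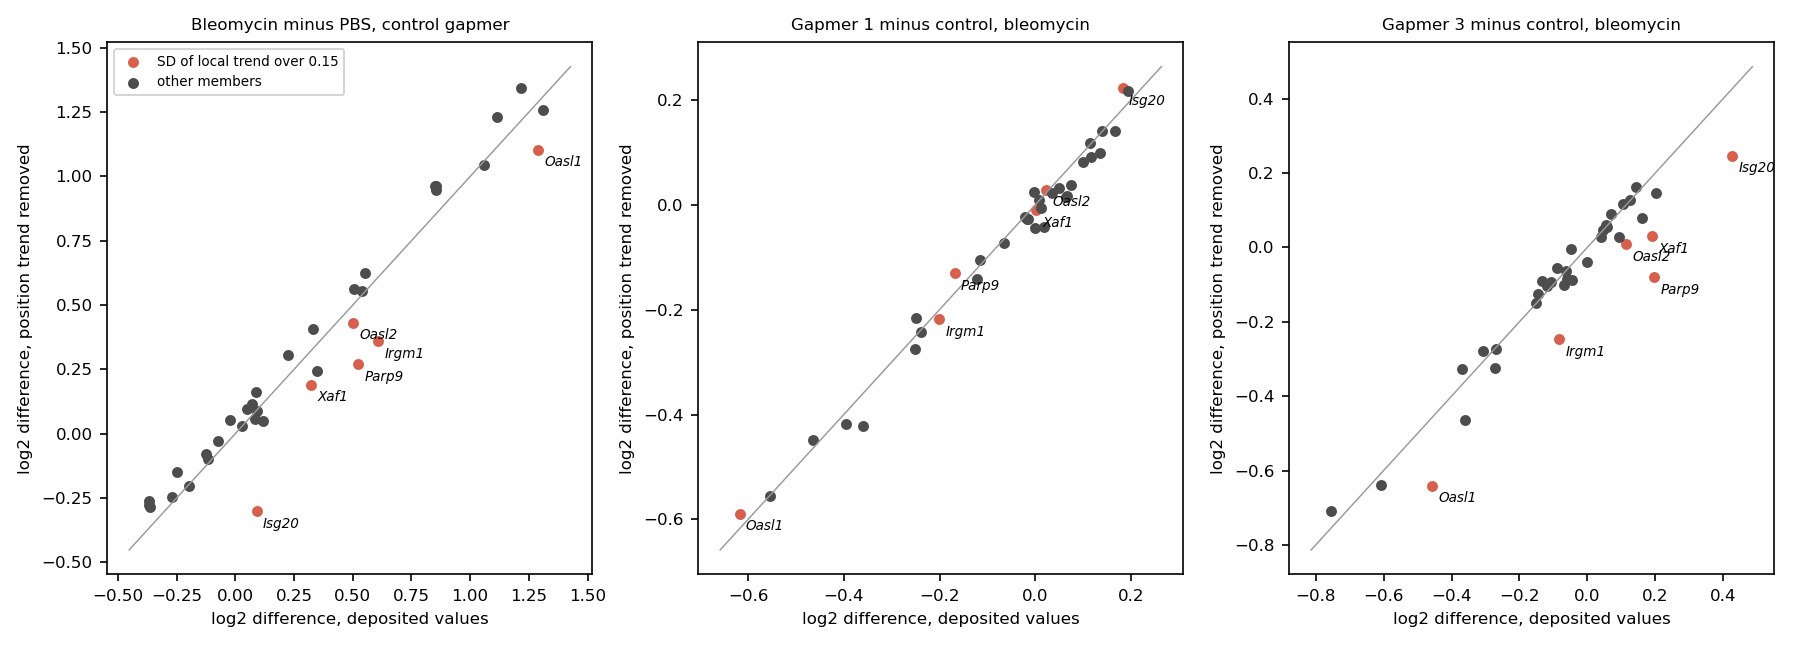
Log2 differences of the 36 members from the deposited values (horizontal) and with the position trend removed (vertical), for bleomycin minus PBS under the control gapmer and for each Dnm3os gapmer minus the control gapmer in bleomycin lungs, with the line of equality. The 6 named genes lie near the array centre, and Isg20 changes sign in the panel on the left, at 0.09 as deposited and -0.30 with the trend removed.

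What injury did to these genes where Dnm3os was not targeted was read from bleomycin and PBS lungs given the control gapmer (n = 5 and 3). The response was split. Genes of the OAS and MX families, the sensor Zbp1, the factor Irf7 and the modifier Isg15 were higher in injured lung. Irf1, Gbp2, Gbp3 and Ifih1 were lower, and 17 members did not pass. In limma, 15 of 36 members were higher at an adjusted p under 0.05 and 4 lower, against 14.5% of all genes higher and 19.3% lower (33.8% in either direction). The median difference was 0.17 for the members and -0.02 for all genes. Of the 19 calls, 13 (11 higher and 2 lower) were kept in each of 35 alternative settings.

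All 5 members of the oligoadenylate synthetase family, whose active enzymes make the messenger that switches on an RNA-degrading nuclease, were higher. Oas1a read 12.33, 12.36, 12.47, 12.40 and 12.46 in bleomycin control lungs, against 11.26, 11.32 and 11.29 in PBS control lungs. The 5 injured samples lay more than a log2 unit above the 3 uninjured ones, with a difference of 1.11 (SE 0.13, limma adjusted p = 1.36e-06). A second Oas1a feature gave 1.13. Oas2 read 10.996, 11.17, 11.14, 11.15 and 11.19 in bleomycin control lungs, against 10.29, 10.19 and 10.34 in PBS control lungs, again without overlap (0.86, SE 0.12, limma adjusted p = 1.21e-05). Oas3 rose by 0.51 (SE 0.09), at 7.15 ± 0.08 in bleomycin and 6.64 ± 0.12 in PBS lungs (SD). Oasl1 and Oasl2 encode OAS-like proteins with ubiquitin-like tails, of which mouse Oasl2 is enzymatically active and Oasl1 is not. Oasl1 read 10.63, 10.81, 10.60, 10.53 and 9.66 in bleomycin control lungs, against 9.38, 8.66 and 9.44 in PBS control lungs. Its lowest injured sample was replicate 5, the array with the deepest position trend, and the difference was 1.29 (SE 0.27) as deposited and 1.10 with the trend removed. Oasl2 rose by 0.50 (limma adjusted p = 0.0396), or 0.43 with the trend removed, and lost its call without any 1 of 7 of the 8 arrays (adjusted p = 0.0724 to 0.125).

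Mx1 and Mx2 belong to a family of dynamin-like GTPases, and the RNA of both was higher. Mx1 had the largest difference of any member: it read 9.72, 9.84, 9.75, 9.77 and 9.47 in bleomycin control lungs, against 8.31, 8.10 and 8.79 in PBS control lungs. The groups did not overlap, and the difference was 1.31 (SE 0.21, limma adjusted p = 5.51e-05), or 2.48-fold. Mx2 rose by 0.33 (limma adjusted p = 0.0163) with overlapping ranges, and was not called without PBS control replicate 2 (0.27, adjusted p = 0.0888) or replicate 3 (0.31, adjusted p = 0.0612).

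Among 4 sensors of nucleic acid, 3 were higher and 1 lower. Zbp1, which recognises Z-form nucleic acid and can trigger cell death, read 10.30, 10.42, 10.28, 10.30 and 10.20 in bleomycin control lungs, against 9.04, 8.96 and 9.26 in PBS control lungs. The injured samples were tightly grouped (SD 0.08) and the difference was 1.21 (SE 0.15, limma adjusted p = 2.49e-06). Dhx58 (LGP2), a regulator of the RIG-I family, rose by 0.55 (SE 0.13). The other 2 members of that family parted: Ddx58 (RIG-I) rose by 0.22 (limma adjusted p = 0.0369) and Ifih1 (MDA5) fell by 0.27 (limma adjusted p = 0.0176). Both calls were fragile. A second Ddx58 feature ran the other way (-0.25), the mean of both features gave -0.01 (adjusted p = 0.894), and the Ddx58 call was lost without any 1 of 7 of the 8 arrays. Ifih1 was not called with the mean of its features (-0.21, adjusted p = 0.0667), without PBS control replicate 1 (-0.26, adjusted p = 0.0571) or without replicate 3 (-0.16, adjusted p = 0.196).

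The 4 transcription factors included 1 rise and 1 fall. Irf7, which amplifies interferon alpha production, read 9.07, 8.91, 8.84, 9.03 and 8.62 in bleomycin control lungs, against 7.90, 7.91 and 7.69 in PBS control lungs. It rose by 1.06 (SE 0.16, limma adjusted p = 2.43e-05), with no overlap. Irf1, a rapid target of interferon gamma whose GAS match is shown above, read 13.45, 13.48, 13.59, 13.45 and 13.51 in bleomycin control lungs, against 13.85, 13.74 and 14.01 in PBS control lungs. Every injured sample lay below every uninjured one, and Irf1 fell by 0.37 (SE 0.08, limma adjusted p = 0.00104). Stat2 and Irf9, which bind the ISRE as parts of 1 complex, differed by 0.08 (95% interval -0.10 to 0.27) and 0.09 (-0.04 to 0.23) and did not pass.

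Of the 11 IFIT and other antiviral effector genes only Ifit1 passed. Ifit1, which binds viral RNA with an unmethylated cap, read 9.26, 9.30, 9.37, 9.30 and 9.22 in bleomycin control lungs, against 8.81, 8.71 and 8.72 in PBS control lungs. The groups did not overlap (0.54, SE 0.13, limma adjusted p = 0.00203). Its relatives Ifit2 and Ifit3 differed by -0.02 and 0.35 (limma adjusted p = 0.892 and 0.07), and Ifit3 passed without bleomycin control replicate 5 (0.43, adjusted p = 0.0227) or PBS control replicate 2 (0.46, adjusted p = 0.0374). Rsad2 (viperin), which makes a chain-terminating nucleotide, and its genomic neighbour Cmpk2 differed by -0.37 and -0.20 and did not pass. Without PBS control replicate 2 Rsad2 passed as lower (-0.53, adjusted p = 0.019). Bst2 (tetherin), which holds budding virus at the cell surface, Ifi35, Ifi44 and Rtp4 differed by -0.12 to 0.12. Isg20, an exonuclease of RNA, differed by 0.09 as deposited, but fell by 0.30 with the position trend removed (adjusted p = 0.017), and its feature away from the array centre gave -0.26. The features of Xaf1 also disagreed, at 0.32 near the centre (0.19 with the trend removed) and -0.39 elsewhere.

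Isg15 encodes a ubiquitin-like protein that is attached to other proteins, and it was the only 1 of its group of 5 to pass. It read 13.26, 13.38, 13.39, 13.44 and 13.38 in bleomycin control lungs, against 12.66, 12.48 and 12.41 in PBS control lungs (0.86, SE 0.12, limma adjusted p = 8.29e-06). Usp18, the protease that removes ISG15 and blocks the type I receptor, differed by 0.09 (95% interval -0.13 to 0.30). The ubiquitin ligase gene Trim25 differed by -0.07, and the ADP-ribosylation genes Parp14 and Parp9 by -0.12 and 0.52. Parp9 ran from 9.44 to 11.15 among bleomycin control lungs, with replicate 5 at the low end, and its difference was 0.27 with the position trend removed, not called either way.

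Of 5 GTPases that attack pathogen vacuoles, 2 were higher and 2 lower. Of the immunity-related GTPases, Iigp1 read 10.27, 10.48, 10.55, 10.30 and 10.39 in bleomycin control lungs, against 9.55, 9.78 and 9.30 in PBS control lungs. It rose by 0.85 (SE 0.13, limma adjusted p = 2.78e-05), and a second Iigp1 feature gave 0.95. Irgm1, a regulator of the family, rose by 0.61 (limma adjusted p = 0.0243), or 0.36 with the trend removed, and its feature away from the centre gave 0.35. The call was lost without any 1 of 5 of the 8 arrays (adjusted p = 0.0503 to 0.109). Igtp differed by 0.07 and did not pass. Both guanylate-binding proteins were lower. Gbp3 fell by 0.36 (SE 0.09), and Gbp2 fell by 0.25, with 11.65, 11.69, 11.54, 11.76 and 11.81 in bleomycin control lungs, against 11.94, 12.10 and 11.78 in PBS control lungs. The Gbp2 ranges overlapped, and the call was lost with the position trend removed (-0.15, adjusted p = 0.103) and without any 1 of 4 arrays, PBS control replicate 2 among them (-0.17, adjusted p = 0.188).

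**Figure D2:**
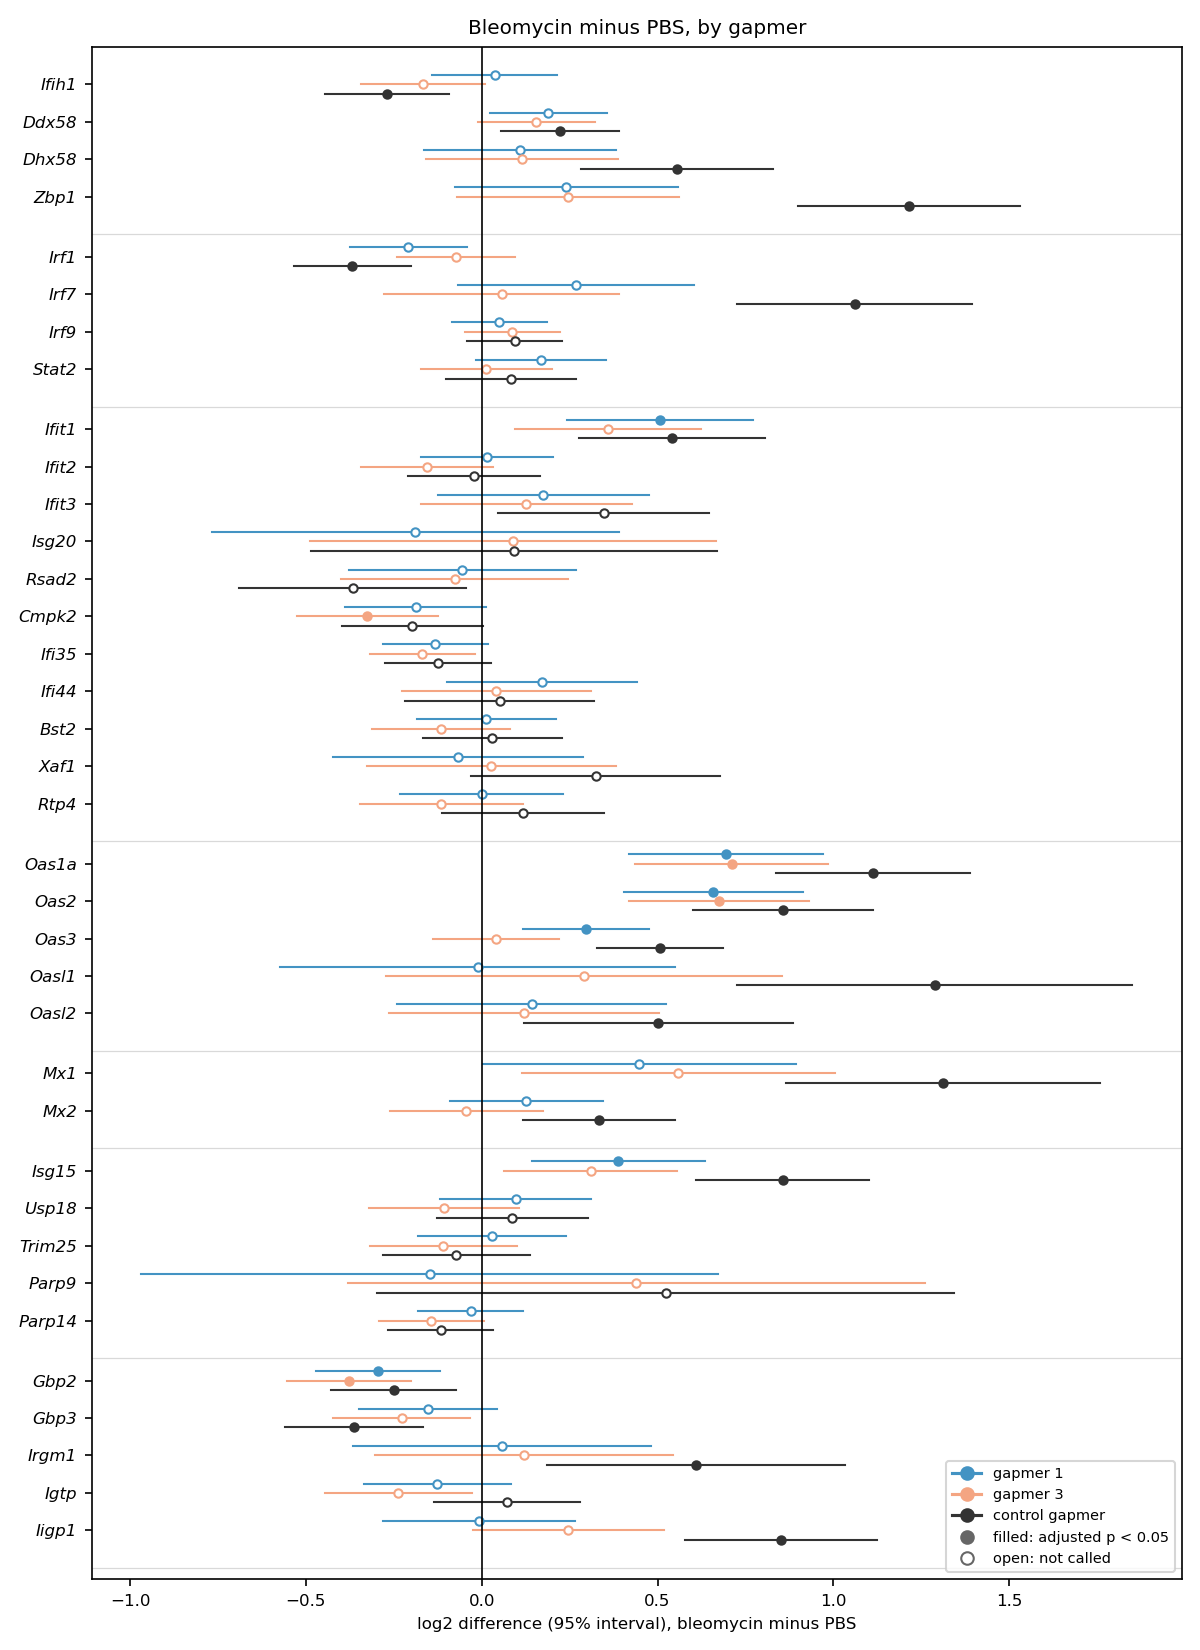
Log2 difference, bleomycin minus PBS, with its 95% interval for each of the 36 members under gapmer 1, gapmer 3 and the control gapmer, grouped from top to bottom as sensors, transcription factors, IFIT and other effectors, OAS, MX, ISG15 and ADP-ribosylation, and GTPases. Filled points passed at an adjusted p under 0.05, 6 with gapmer 1, 4 with gapmer 3 and 19 with the control gapmer.

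Lungs given a Dnm3os gapmer were then compared with PBS lungs given the same gapmer, to ask which of these changes were seen there (n = 5 and 3 each). Oas1a and Oas2 rose under both gapmers, by 0.69 and 0.66 with gapmer 1 and by 0.71 and 0.67 with gapmer 3. Irf7, Zbp1, Iigp1, Dhx58 and Oasl1, all higher under the control gapmer, did not pass under either. With gapmer 1, 5 of 36 members were higher and 1 lower, against 6.35% and 3.13% of all genes (9.48% in either direction). With gapmer 3, 2 were higher and 2 lower, against 7.02% and 6.85% (13.9%). The median difference was 0.04 with gapmer 1, 0.04 with gapmer 3 and 0.17 with the control gapmer. The gapmer 1 median was -0.03 without PBS gapmer 1 replicate 3 and 0.15 without its replicate 1. The gapmer 3 median was -0.03 without PBS gapmer 3 replicate 2, 0.10 without its replicate 1 and 0.00 with the position trend removed. All 15 members that rose under the control gapmer had a smaller difference under each gapmer, with medians of 0.24 and 0.25 against 0.85, or 0.24 and 0.16 against 0.95 with the position trend removed. They were picked for their rise under the control gapmer, so a smaller value elsewhere is in part built in, and the test of the difference is given further on.

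With gapmer 1, Oas1a read 12.27, 12.08, 12.25, 12.49 and 12.36 in bleomycin lungs, against 11.99, 11.38 and 11.41 in PBS lungs. With gapmer 3 it read 12.44, 12.52, 11.84, 12.34 and 12.21 in bleomycin lungs, against 11.63, 11.58 and 11.47 in PBS lungs. Neither pair of groups overlapped (limma adjusted p = 0.00172 and 0.000785), and PBS gapmer 1 replicate 1 and bleomycin gapmer 3 replicate 3 came closest to the other group. For Oas2 the groups did not overlap under either gapmer (limma adjusted p = 0.0014 and 0.00062).

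Ifit1 rose by 0.51 with gapmer 1 (SE 0.13, limma adjusted p = 0.0133), near its 0.54 under the control gapmer. It read 9.36, 9.06, 9.22, 9.80 and 9.69 in bleomycin lungs with gapmer 1, against 9.01, 8.80 and 8.94 in PBS lungs with gapmer 1. It was not called without PBS gapmer 1 replicate 2 (0.45, adjusted p = 0.0838). With gapmer 3 Ifit1 differed by 0.36 (limma adjusted p = 0.0648), passing, for example, with the position trend removed (0.39, adjusted p = 0.0169) and without bleomycin gapmer 3 replicate 3 (0.42, adjusted p = 0.0318). Isg15 and Oas3 rose by 0.39 and 0.30 with gapmer 1 (limma adjusted p = 0.0409 and 0.0308), and differed by 0.31 and 0.04 with gapmer 3. Their gapmer 1 calls were lost without PBS gapmer 1 replicate 3, at 0.24 (adjusted p = 0.288) and 0.23 (adjusted p = 0.18), and without any 1 of 4 further arrays for Isg15 or 3 for Oas3. Mx1 differed by 0.45 with gapmer 1 and 0.56 with gapmer 3, which did not pass (limma adjusted p = 0.223 and 0.0913).

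With gapmer 1 Irf7 read 8.62, 8.33, 8.25, 8.91 and 8.54 in bleomycin lungs, against 8.68, 8.19 and 7.93 in PBS lungs. With gapmer 3 it read 8.75, 8.56, 8.22, 8.70 and 8.45 in bleomycin lungs, against 8.70, 8.30 and 8.44 in PBS lungs. Injured and uninjured samples were interleaved under both gapmers, with differences of 0.27 and 0.06. Zbp1 differed by 0.24 with each gapmer (95% intervals -0.08 to 0.56 and -0.07 to 0.56), Iigp1 by -0.01 and 0.25, Dhx58 by 0.11 and 0.11, and Oasl1 by -0.01 and 0.29 (0.05 and 0.11 with the position trend removed).

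Gbp2 was lower after bleomycin in all 3 settings. It read 11.80, 11.83, 11.80, 11.71 and 11.63 in bleomycin lungs with gapmer 1, against 12.01, 12.20 and 11.93 in PBS lungs with gapmer 1. It read 11.76, 11.69, 11.77, 11.87 and 11.64 in bleomycin lungs with gapmer 3, against 12.08, 12.28 and 12.01 in PBS lungs with gapmer 3. Neither pair overlapped, and Gbp2 fell by 0.30 and 0.38 (limma adjusted p = 0.0306 and 0.00401). The gapmer 1 call was lost without PBS gapmer 1 replicate 2 (-0.22, adjusted p = 0.209) or any 1 of 3 other arrays. Cmpk2 fell by 0.33 with gapmer 3 (limma adjusted p = 0.0258) and was not called without any 1 of 5 of the 8 arrays. Irf1 differed by -0.21 with gapmer 1 and -0.07 with gapmer 3, Ifih1 by 0.04 and -0.17, Stat2 by 0.17 and 0.01, Irf9 by 0.05 and 0.09, Usp18 by 0.10 and -0.11, Rsad2 by -0.06 and -0.08 and Igtp by -0.13 and -0.24, and none of these passed.

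**Figure D3:**
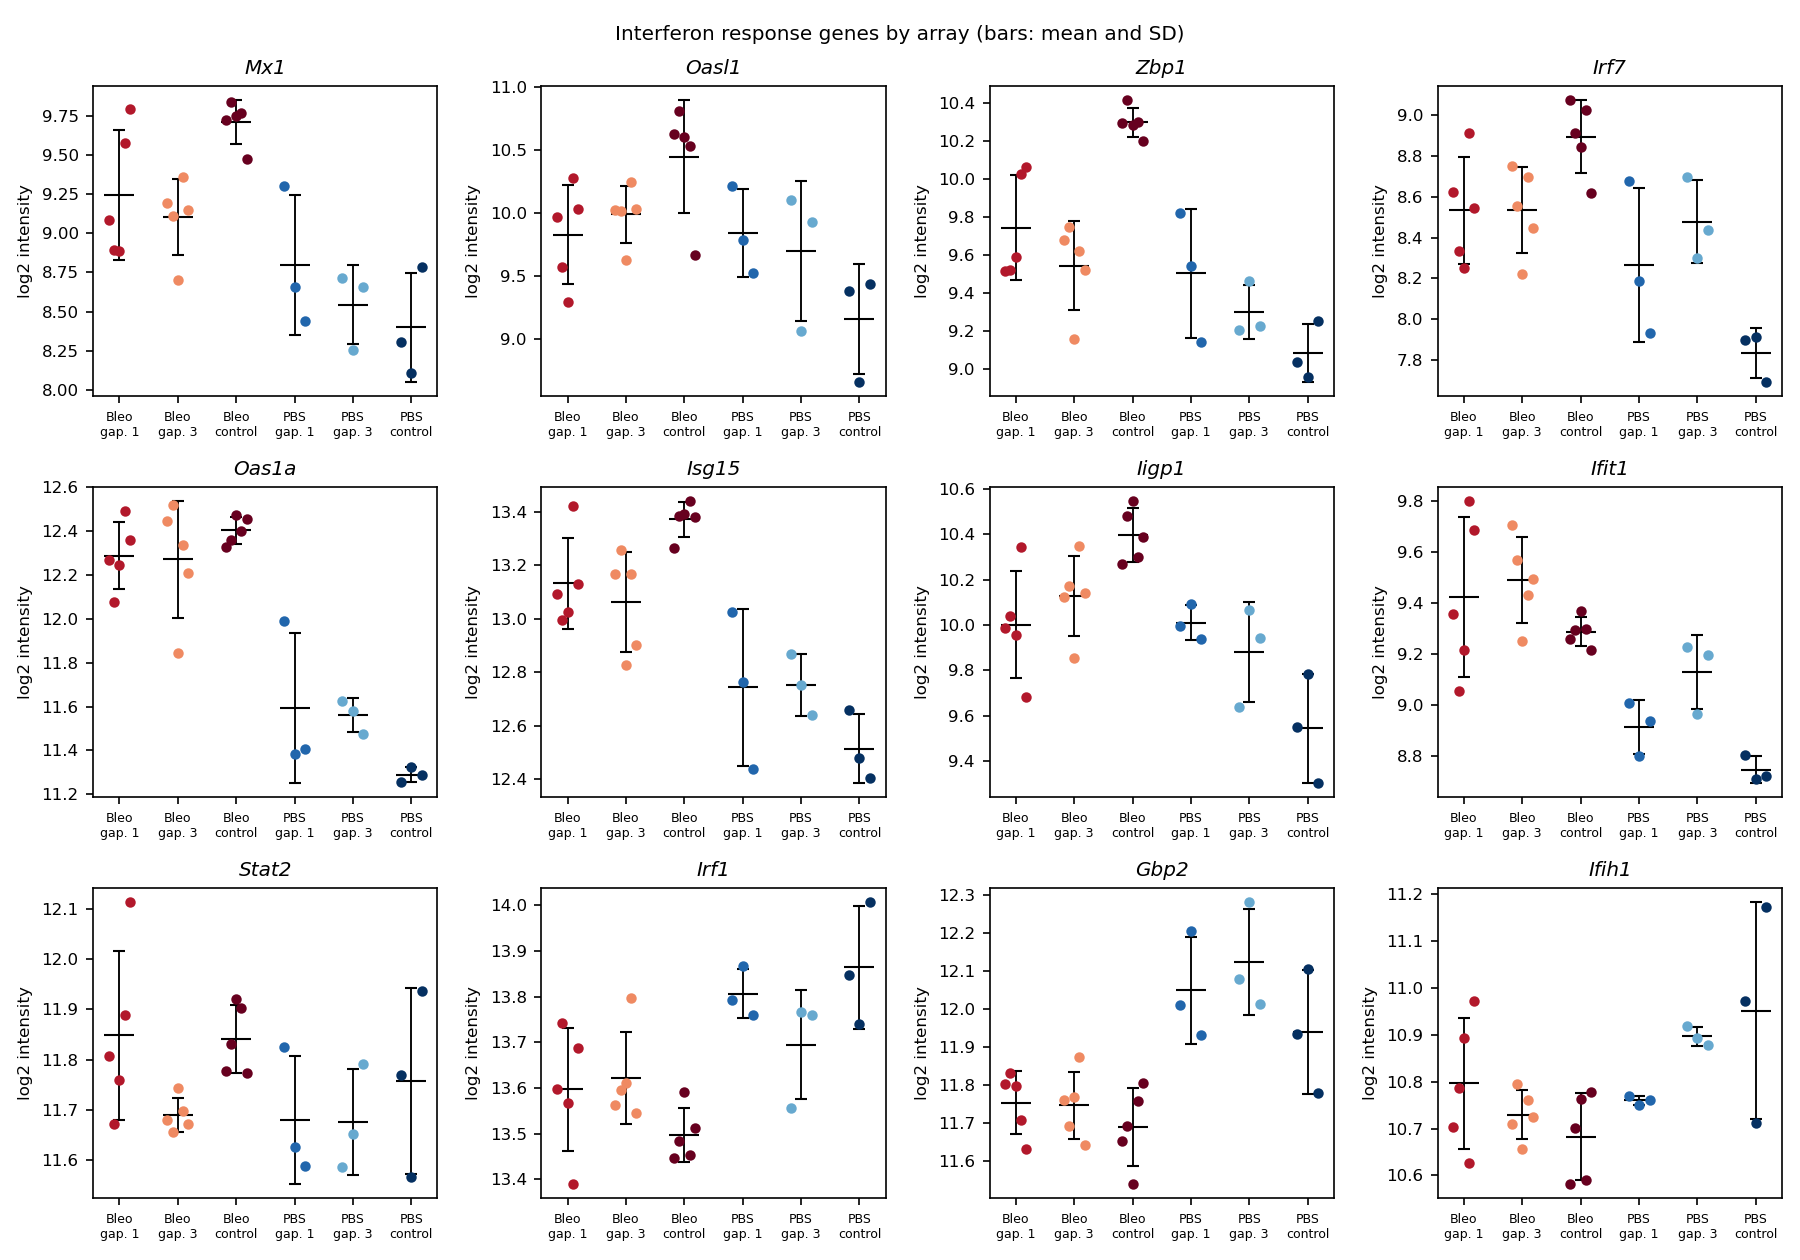
Log2 intensity of 12 members on every array, with points for single arrays and bars for the mean and SD, in bleomycin lungs with gapmer 1, gapmer 3 and the control gapmer (n = 5 each) and in PBS lungs with the same 3 gapmers (n = 3 each). Oas1a is high in all 3 bleomycin groups, whereas Zbp1 lies at 10.20 to 10.42 in bleomycin control lungs, above every other sample, and Stat2 shows no separation of the groups.

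Each Dnm3os gapmer was compared with the control gapmer within bleomycin lungs, to ask whether the level of these genes in injured lung differed (n = 5 and 5). Zbp1 and Oas3 were lower with both gapmers, Iigp1 was called lower with gapmer 1 and Mx1 with gapmer 3, and no member was higher with either. With gapmer 1, 3 of 36 members were lower and 0 higher, against 5.08% and 5.47% of all genes (10.5% in either direction). With gapmer 3, 3 of 36 were lower and 0 higher, against 7.52% and 5.63% (13.2%). At an unadjusted p under 0.05 limma gave 8 lower members with gapmer 1, 7 with gapmer 3, and 0 higher with either, against 10.1% and 13.3% of all genes lower and 13.2% and 12.3% higher. Median differences of the members were 0.00 and -0.05, and 18 and 15 of 36 were positive, against 54.9% and 52.5% of all genes. Both comparisons use the same 5 control arrays.

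Zbp1 had the lowest p of the members in both. It read 9.52, 9.52, 9.59, 10.03 and 10.06 with gapmer 1 and 9.68, 9.75, 9.16, 9.62 and 9.52 with gapmer 3, against 10.30, 10.42, 10.28, 10.30 and 10.20 with the control gapmer. No gapmer sample reached the lowest control sample. The Zbp1 difference was -0.55 with gapmer 1 (limma adjusted p = 0.00903) and -0.75 with gapmer 3 (limma adjusted p = 0.000554), with an SE of 0.13 for both. A second Zbp1 feature gave -0.48 and -0.67, and the call stood in all 35 alternative settings in both comparisons.

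Oas3 fell by 0.25 with gapmer 1 (limma adjusted p = 0.0344) and by 0.37 with gapmer 3 (limma adjusted p = 0.0019), at 6.90 ± 0.12 and 6.78 ± 0.11 against 7.15 ± 0.08 (SD, n = 5). The gapmer 1 call was lost with the position trend removed (-0.22, adjusted p = 0.0774) and without any 1 of 8 of the 10 arrays, whereas the gapmer 3 call stood in every setting tried. Mx1 read 9.09, 8.90, 8.88, 9.58 and 9.79 with gapmer 1 and 9.19, 9.11, 8.70, 9.36 and 9.15 with gapmer 3, against 9.72, 9.84, 9.75, 9.77 and 9.47 with the control gapmer. It fell by 0.61 with gapmer 3 (limma adjusted p = 0.0327), where all 5 samples lay below the controls, and differed by -0.46 with gapmer 1 (limma adjusted p = 0.122), where 2 samples lay among them. Its gapmer 3 call was lost without any 1 of 7 of the 10 arrays (adjusted p = 0.053 to 0.106). Iigp1 fell by 0.39 with gapmer 1 (limma adjusted p = 0.0279) and differed by -0.27 with gapmer 3 (limma adjusted p = 0.132), and its gapmer 1 call was lost without any 1 of 6 of the 10 arrays.

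Oasl1 is one of the genes near the array centre. It read 9.97, 9.57, 9.29, 10.28 and 10.03 with gapmer 1 and 10.02, 10.02, 9.62, 10.24 and 10.03 with gapmer 3, against 10.63, 10.81, 10.60, 10.53 and 9.66 with the control gapmer. Only control replicate 5 overlapped the gapmer samples. The differences of -0.62 and -0.46 were not called (limma adjusted p = 0.0995 and 0.228). With the position trend removed they were -0.59 and -0.64 (adjusted p = 0.00159 and 0.00058), and -0.81 and -0.65 without control replicate 5 (adjusted p = 0.0155 and 0.0485). With the position trend removed, Irf7 also passed with both gapmers (-0.42 and -0.46, adjusted p = 0.0135 and 0.00596, against -0.36 and -0.36 as deposited), Dhx58 passed with gapmer 3 (-0.32) and Isg20 passed as higher with gapmer 3 (0.25, against 0.43 and no call as deposited). This made 4 lower members with gapmer 1 and 6 lower and 1 higher with gapmer 3. The shares of all genes called lower were then 6.94% and 8.98%, and 7.33% were higher with gapmer 3.

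Oas1a and Oas2, higher after bleomycin under each gapmer, did not pass here. Oas1a differed by -0.11 with gapmer 1 and -0.13 with gapmer 3, and Oas2 by -0.12 (95% interval -0.34 to 0.10) and -0.06 (-0.28 to 0.16). Ifit1 lay above the control mean with both gapmers, by 0.13 and 0.20, and Isg15 below it by 0.24 and 0.31 (limma adjusted p = 0.153 and 0.0509). With only the groups compared in the fit Isg15 passed with gapmer 3 (adjusted p = 0.0326), where all 5 gapmer samples lay below the controls. That margin was small, as gapmer 3 replicate 2 and control replicate 1 both rounded to 13.26. Stat2 differed by 0.01 and -0.15, Irf9 by -0.02 and 0.04, Usp18 by 0.03 and -0.11, Irf1 by 0.10 and 0.12, Ifih1 by 0.11 and 0.05, Gbp2 by 0.06 and 0.06, Rsad2 by 0.17 and 0.14 and Igtp by 0.07 and -0.12.

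**Figure D4:**
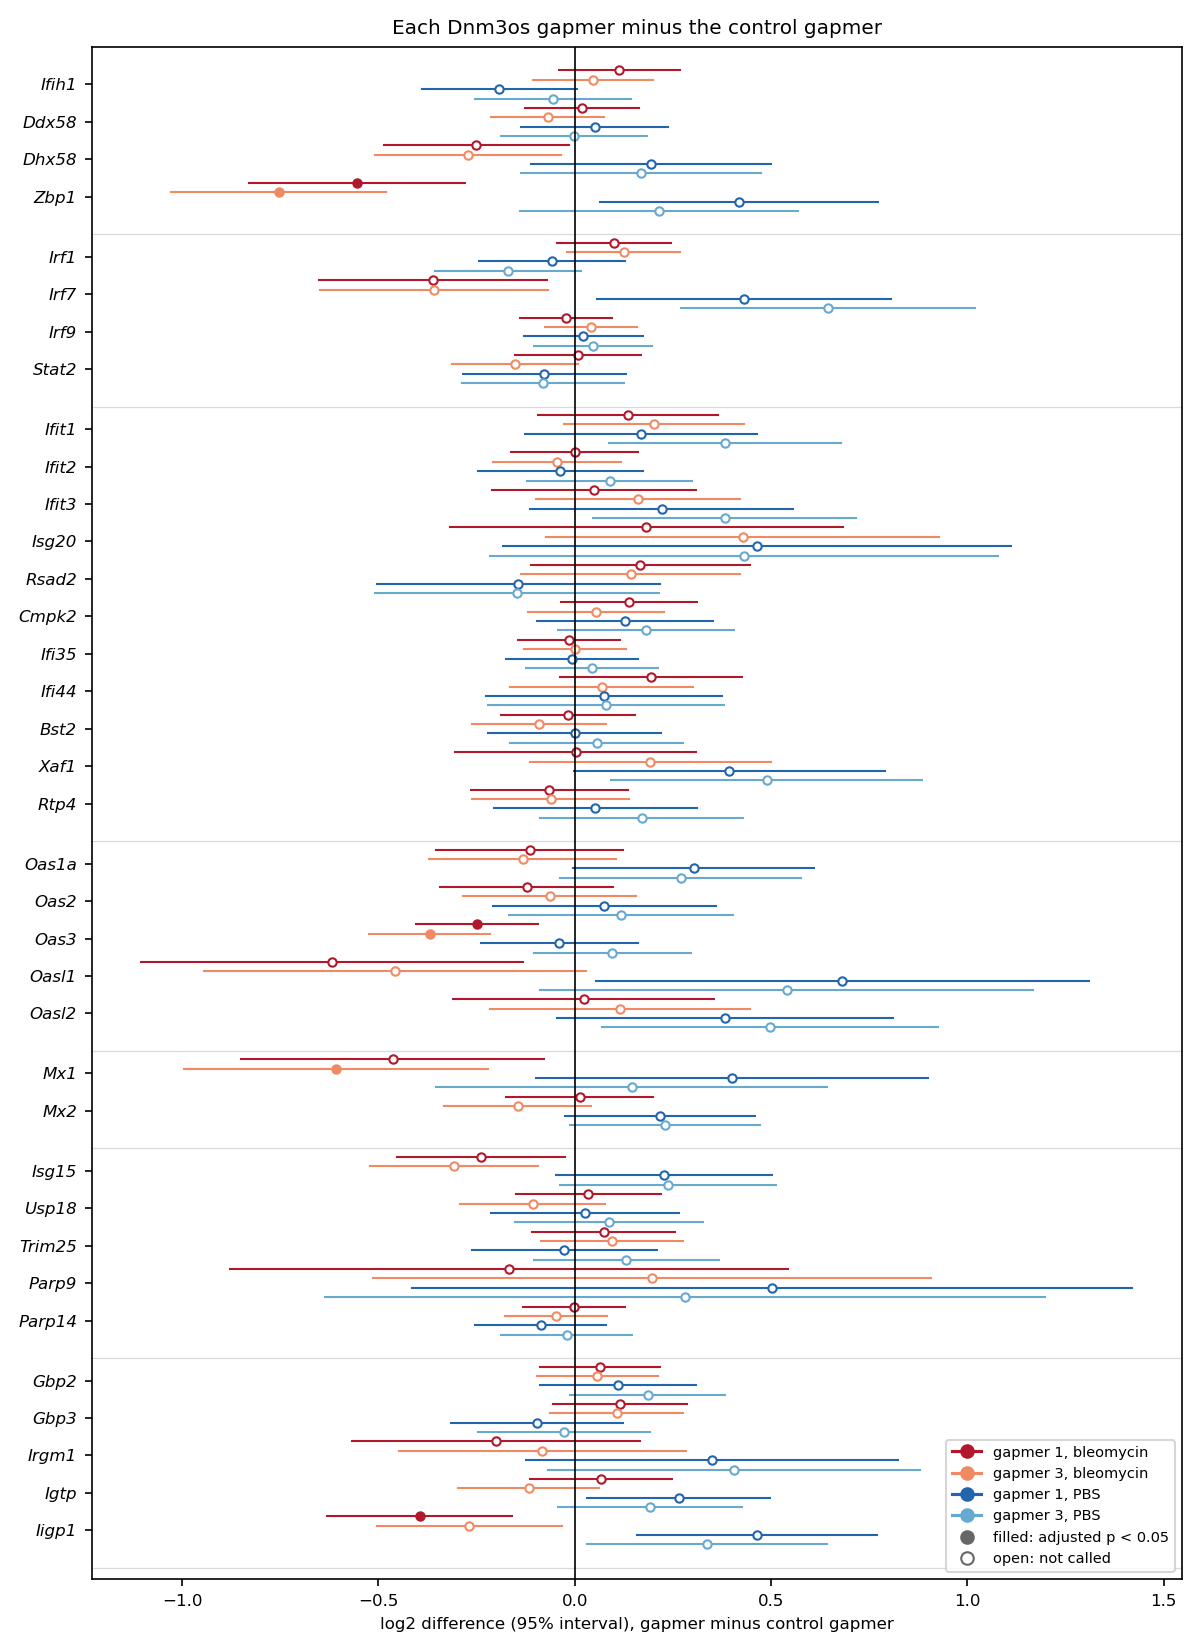
Log2 difference, each Dnm3os gapmer minus the control gapmer, with its 95% interval for each of the 36 members in bleomycin and in PBS lungs, grouped as in the plot of the bleomycin response. Filled points passed at an adjusted p under 0.05, which was the case for 3 members per gapmer in bleomycin lungs, all lower, and for none in PBS lungs.

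In uninjured lung the same comparison called 0 of 36 members with either gapmer in limma (n = 3 and 3), against 1.11% of all genes with gapmer 1 (0.444% higher and 0.666% lower) and 0.0338% with gapmer 3 (0.00965% higher and 0.0241% lower). At an unadjusted p under 0.05 there were 5 members with gapmer 1 and 6 with gapmer 3, all higher than in PBS control lungs, against 5.92% and 2.88% of all genes higher and 11.1% and 6.88% lower. Irf7 lay at 8.68, 8.19 and 7.93 with gapmer 1 and at 8.70, 8.30 and 8.44 with gapmer 3, against 7.90, 7.91 and 7.69 with the control gapmer. As deposited all gapmer samples lay above all control samples, with 7.93 against 7.91 the closest for gapmer 1. The differences were 0.43 and 0.64 (limma adjusted p = 0.218 and 0.286). With the position trend removed gapmer 1 replicate 3 (7.924) fell under control replicates 1 and 2 (7.927 and 7.994). The gapmer 3 samples stayed above the controls. How often all genes separate in this way was not counted. Iigp1 differed by 0.46 with gapmer 1 (limma adjusted p = 0.104), and passed without PBS control replicate 2 (0.58, adjusted p = 0.0463). Zbp1 differed by 0.42 with gapmer 1, and Ifit1 and Xaf1 by 0.38 and 0.49 with gapmer 3 (Xaf1 0.30 with the position trend removed). The second Zbp1 feature averaged 8.08 with gapmer 1 and 7.88 with the control gapmer. The Xaf1 feature away from the array centre averaged 7.31 with gapmer 3 and 7.25 with the control gapmer. In the other direction Ifih1 (-0.19), Parp14 (-0.09) and Gbp3 (-0.10) had the smallest p with gapmer 1, and Irf1 (-0.17), Rsad2 (-0.15) and Stat2 (-0.08) with gapmer 3. The median of the members was 0.12 with gapmer 1 and 0.17 with gapmer 3, and 25 and 29 of 36 were positive, against 44.0% and 45.7% of all genes. Without PBS gapmer 1 replicate 1, which had the highest value of its group for 28 of the 36 members, the gapmer 1 median was 0.03. That sample had the lowest RNA integrity number of the 24 (8.5), and the part of RNA quality in its values was not tested. With RNA integrity as a covariate the gapmer 1 median was 0.10. Both comparisons use the same 3 control arrays.

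The difference between the bleomycin response under a Dnm3os gapmer and under the control gapmer was tested directly. It combines the shifts in injured and in uninjured lung, and both of its arms use arrays of the comparisons above. With gapmer 1, 4 of 36 members had a smaller response and 0 a larger one, against 2.74% and 4.97% of all genes (7.7% in either direction): Oasl1 (-1.30, SE 0.38, limma adjusted p = 0.0407), Zbp1 (-0.97, SE 0.22, limma adjusted p = 0.0111), Iigp1 (-0.86, SE 0.19, limma adjusted p = 0.0096) and Irf7 (-0.79, SE 0.23, limma adjusted p = 0.0367). With gapmer 3, 3 of 36 had a smaller response and 0 a larger one, against 1.64% and 1.45% (3.09%): Irf7 (-1.004, SE 0.23, limma adjusted p = 0.0201), Zbp1 (-0.97, SE 0.22, limma adjusted p = 0.0178) and Oas3 (-0.47, SE 0.12, limma adjusted p = 0.0383). At an unadjusted p under 0.05 limma gave 1 member with a larger response with each gapmer, and 8 and 11 with a smaller one, against 15.1% and 10.7% of all genes with a positive difference and 8.58% and 7.76% with a negative one. Oasl1 gave -1.05 and -0.99 with the position trend removed and was then called with both gapmers. The Zbp1 and Iigp1 calls with gapmer 1 stood in all 35 alternative settings. Those of Irf7 and Oasl1 with gapmer 1 and Oas3 with gapmer 3 were lost without any 1 of 10, 11 and 11 of the 16 arrays compared (adjusted p up to 0.123, 0.115 and 0.133). Those of Irf7 and Zbp1 with gapmer 3 were each lost without 2 arrays, PBS gapmer 3 replicate 1 (-0.89, adjusted p = 0.0687) and PBS control replicate 3 (-0.93, adjusted p = 0.0638) for Irf7, and PBS gapmer 3 replicate 2 (-0.89, adjusted p = 0.0516) and PBS control replicate 1 (-0.95, adjusted p = 0.0514) for Zbp1. Oas1a and Oas2 did not pass, and Oas1a differed by -0.42 and -0.40 (limma adjusted p = 0.177 and 0.253).

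Gapmer 3 and gapmer 1 were compared in bleomycin lungs (n = 5 and 5), and limma called 0 of 36 members, against 0% of all genes. At an unadjusted p under 0.05 there was 1 member, Igtp (-0.18, 95% interval -0.37 to -0.00), against 4.04% of all genes. Stat2 and Mx2 followed with -0.16 each, and Xaf1 (0.19, or 0.04 with the position trend removed), Iigp1 (0.13) and Irf9 (0.06) had the smallest p in the other direction. The 95% interval of a member had a median half-width of 0.21 here, so differences of about that size are not resolved.

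Of 17 measured interferon genes, limma called 0 higher after bleomycin under the control gapmer and 1 lower, Ifnk (-0.58), a type I interferon of epithelium, and 2 had an unadjusted p under 0.05. In bleomycin lungs Ifnk was the 1 interferon gene called with each gapmer, and it was higher (0.25 and 0.25). Of all genes 5.47% and 5.63% were higher in these comparisons, so 1 of 17 lies near that share. Ifnb1 lay at 5.65 in bleomycin and 5.63 in PBS control lungs, both under the 25th percentile of gene means, and Ifng at 7.04 and 6.99. With the position trend removed Ifna2, Ifna4, Ifna7, Ifna11, Ifna13, Ifna16 and Ifne also lay under that percentile in bleomycin control lungs (5.62 to 6.02). At such low readings a change in these genes may be missed. Among 9 receptor and kinase genes Ifngr2 was higher (0.47) and Ifngr1 (-0.25) and the interferon lambda receptor Ifnlr1 (-0.43) lower after bleomycin under the control gapmer. Of all genes 14.5% were higher and 19.3% lower there. With the position trend removed 2 of the 9 were higher and 1 lower. Ifngr1 then averaged 13.08 in bleomycin and 13.26 in PBS control lungs. Ifnar1 differed by 0.72 as deposited and by 0.22 with the position trend removed, and was not called either way.

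The counts of other genes of the pathway stand against the shares of all genes called after bleomycin under the control gapmer (14.5% higher and 19.3% lower) and with gapmers 1 and 3 in bleomycin lungs (5.08% and 7.52% lower, 5.47% and 5.63% higher). With the position trend removed, 3705 of 20728 genes were higher and 3699 lower after bleomycin. With gapmers 1 and 3, 1423 and 1520 were then higher and 1439 and 1861 lower. Of 6 further STAT and IRF genes 4 were higher after bleomycin (Irf5 0.93, Irf8 0.82, Irf4 0.54, Stat3 0.38) and 1 lower (Irf3 -0.29). With gapmers 1 and 3 in bleomycin lungs Irf5 fell by 0.43 and 0.47 and Irf4 by 0.55 and 0.69. With the position trend removed 4 of the 6 were higher and 2 lower after bleomycin. With each gapmer 3 were then lower, and 1 was higher with gapmer 3. Of 10 negative regulators 7 were higher and 0 lower, led by Socs3 (2.06) and Socs1 (0.92), which block JAK kinases. With gapmers 1 and 3 in bleomycin lungs 3 and 4 of the 10 were lower. With the position trend removed 5 and 6 were lower, and 1 was higher with gapmer 3. Socs1 fell by 0.71 and 0.73 with gapmers 1 and 3, with no overlap. Of 13 genes of the nucleic acid sensing pathway 5 were higher and 1 lower after bleomycin, led by Sting1 (1.22), the adaptor that DNA sensing uses. Sting1 fell by 0.65 and 0.82 with gapmers 1 and 3. With the position trend removed 6 of the 13 were higher and 2 lower after bleomycin, and 4 were lower and 1 higher with each gapmer. Of 45 other interferon-induced genes 12 were higher and 6 lower (33.8% of all genes were called in either direction), with Ifi204 (1.05), Slfn2 (1.01), Ifi30 (0.95) and Lgals3bp (0.72) the largest, and 7 were lower with each gapmer. With the position trend removed 13 were higher and 3 lower after bleomycin. With gapmers 1 and 3, 7 and 8 were then lower and 2 higher each. Of 26 genes induced mainly by interferon gamma 10 were higher and 0 lower, with a median of 0.14, and 2 and 4 were lower with gapmers 1 and 3. With the position trend removed 11 were higher and 1 lower, with a median of 0.23, and 6 were lower with each gapmer. Cxcl9 and Cxcl10, chemokines that draw in T cells, were the largest. Cxcl9 averaged 9.24 in bleomycin control lungs and 7.04 in PBS control lungs (difference 2.20), and Cxcl10 10.89 and 8.59 (2.30). In bleomycin lungs Cxcl9 fell by 1.21 and 1.39 with gapmers 1 and 3, and Cxcl10 by 1.00 and 1.25, with no overlap of the groups.

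Markers of several immune cells moved in the same comparisons. After bleomycin under the control gapmer 14.5% of all genes were higher and 19.3% lower. With gapmers 1 and 3 in bleomycin lungs 5.08% and 7.52% were lower. After bleomycin under the control gapmer 7 of 8 T cell markers were higher, and their mean level was 9.56 to 10.38 in bleomycin control lungs, against 8.78 to 9.13 in PBS control lungs. With gapmers 1 and 3 in bleomycin lungs 6 of the 8 were lower each, and the mean level was 8.96 to 9.23 and 8.75 to 9.15. All 11 monocyte and macrophage markers were higher after bleomycin, with mean levels of 11.70 to 12.00 against 9.90 to 10.13, and 3 were lower with each gapmer. B and plasma cell markers were higher in 4 of 7 cases after bleomycin and lower in 5 of 7 with each gapmer. NK cell markers were lower in 6 of 8 cases after bleomycin and higher in 1, and 6 of 6 lung endothelial markers were lower. Plasmacytoid dendritic cell markers, of cells known for making interferon alpha, had 0 higher and 1 lower of 6 after bleomycin and 1 lower with each gapmer. Alveolar macrophage markers had 1 higher and 4 lower of 7 after bleomycin, conventional dendritic cell markers 3 higher and 1 lower of 7, neutrophil markers 2 lower of 6 and skeletal muscle markers 3 lower of 9. Some counts moved with the position trend removed. After bleomycin plasmacytoid markers then had 2 higher and 1 lower, alveolar macrophage markers 2 and 3, and conventional dendritic cell markers 3 and 0. NK and endothelial markers had 5 lower each and neutrophil markers 3. With gapmers 1 and 3 in bleomycin lungs 4 monocyte and macrophage markers were lower each, and 1 was higher with gapmer 3. There 3 of 6 lung epithelial genes were higher with each, 2 and 4 of 6 endothelial markers, and 2 and 0 of 7 alveolar macrophage markers. Neutrophil markers had 2 of 6 lower with each, and conventional dendritic cell markers 2 lower and 1 higher of 7. NK cell markers had 1 lower with each and 1 higher with gapmer 3, and skeletal muscle markers 1 higher. Of all 20728 genes 1423 and 1520 were higher and 1439 and 1861 lower. In PBS lungs none of these lists had a call with gapmer 3, and with gapmer 1 there were 2 higher monocyte and macrophage markers and 1 higher alveolar macrophage marker. The part of these cells in the changes of the members was not tested.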

How the data were processed

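Total RNA of 24 whole-lung samples was labelled with Cy3 for one-colour Agilent arrays, per the labels. The deposited values are log2 intensities already on a common distribution, as their array medians of 6.48 to 6.50 show. The submitters' processing notes name limma, and the sources used here do not give the background correction. Of 62976 features 31465 carried 1 gene symbol and 31511 none, and the brightest feature by mean stood for each of 20728 genes. Dim genes were kept.

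Two-sided tests came from limma 3.58.1, run in R 4.3.3, with lmFit and then eBayes, in 1 fit of 24 arrays with 6 group means, 18 residual and 3.26 prior degrees of freedom, and Benjamini-Hochberg adjustment over all genes of a comparison. An adjusted p under 0.05 was called. Samples were grouped by their titles. The 36 members, the pathway and marker lists, the contrasts and the naming rule were chosen with earlier results of these data known. Genes named are the called members (up to 8 in each direction), 15 fixed members, a few fixed genes outside the list and up to 4 called genes per pathway list. Other members are named to account for the list, chosen after their values were seen. In a comparison with no call, 3 members per direction are named, by their p.

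On simulated data the fit recovered 74% of genes changed 1.5-fold and 92% changed 2-fold for bleomycin against PBS under the control gapmer, and 50% and 80% for the difference in response with gapmer 1. Alternatives were another quantile normalisation, median centring, no dim genes, the mean of all features, array weights, a variance trend, robust variance, RNA integrity as a covariate, only the groups compared, a block for the replicate number, each array left out, and removal of the position trend (median over 17 lines by 13 columns of deviations from feature means, with features above and under 8 apart). Promoters came from RefSeq (GRCm38.p6). Python 3.11.15 with pandas 2.3.3 made the tables, and matplotlib 3.10.9 the plots.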

Additional observations from a re-analysis of the deposited data

Results flagged for a closer look

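Of 108 bleomycin groups of 5 arrays, 12 held a sample whose gap to its nearest neighbour was large for the range of its group, where chance gives about 1 in 20. In 6 of the 12 it was bleomycin control replicate 5 that lay low, at the 6 genes near the array centre: Isg20 (12.5, next 13.4), Xaf1 (10.4, next 11.03), Oasl1 (9.66, next 10.5), Oasl2 (10.9, next 11.7), Parp9 (9.44, next 11.04) and Irgm1 (10.7, next 11.4). With the position trend removed, 7 of 108 groups were marked, 2 of them bleomycin control groups (Parp9 and Irgm1). Bleomycin control replicate 1 was low for Oas2 (10.996, next 11.1) and Mx2 (8.30, next 8.53). The others were Ddx58 on bleomycin gapmer 1 replicate 5 (12.1, next 11.9), and, among bleomycin gapmer 3 samples, Irf1 on replicate 4 (13.8, next 13.6), Ifit3 on replicate 3 (11.8, next 12.2) and Ifi35 on replicate 1 (11.6, next 11.4).

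The response to bleomycin differed between a Dnm3os gapmer and the control gapmer, by the test of the difference itself, for Zbp1 (-0.97 with gapmer 1 and -0.97 with gapmer 3), Irf7 (-0.79 and -1.004), Oasl1 (-1.30 with gapmer 1), Iigp1 (-0.86 with gapmer 1) and Oas3 (-0.47 with gapmer 3).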

How the results depend on the processing

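The direction of every called member held in all 35 alternatives except 1: Ddx58, after bleomycin under the control gapmer, was -0.013 with the mean of all features. Isg20, not called as deposited, changed sign to -0.30 with the position trend removed. The counts of called members for bleomycin against PBS under the control gapmer stayed within 1.5 times of 19. With array weights the counts were 9 for bleomycin against PBS with gapmer 3, 8 for each gapmer against control in bleomycin lungs, and 7 for the difference in response with each gapmer. Calls over all 20728 genes also rose with array weights. They were 4479 for bleomycin against PBS with gapmer 3 (2875 in the main fit). For gapmers 1 and 3 against control in bleomycin lungs they were 4231 and 5121 (2186 and 2726). For the difference in response they were 3251 and 1763 (1597 and 641). With only the groups compared the member counts were 1 for bleomycin against PBS with gapmer 1, 1 for gapmer 1 against control in bleomycin lungs and 2 for the difference with gapmer 1. Calls over all genes were then 485, 1278 and 1264, against 1966, 2186 and 1597 in the main fit. RNA integrity as a covariate gave 2 for bleomycin against PBS with gapmer 1 and 1 for the difference with gapmer 3. Over all genes it gave 898 and 287 calls, against 1966 and 641 in the main fit. Position trend removal gave 7 for gapmer 3 against control in bleomycin lungs, with 3381 calls over all genes, against 2726 in the main fit.

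Leaving out each array in turn gave counts of 14 to 20 for bleomycin against PBS under the control gapmer (median difference 0.13 to 0.28), 2 to 6 with gapmer 1 (2 without PBS gapmer 1 replicate 2, 3 without bleomycin gapmer 1 replicate 4) and 3 to 6 with gapmer 3. In bleomycin lungs they were 1 to 6 for gapmer 1 (6 without its replicate 4) and 2 to 4 for gapmer 3 against control, and in PBS lungs 0 to 1 and 0 to 0. For the difference in response they were 2 to 6 with gapmer 1 and 1 to 5 with gapmer 3, and for gapmer 3 against gapmer 1 0 to 0. The causes were not tested.

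Over 51 pairs of samples with the same replicate number the deviations correlated at -0.41 to 0.42 (median 0.07), with 23 over 0.1. Over 186 pairs with other numbers the median was -0.03. Whether the numbers mark a shared batch was not tested. With the replicate number as a block the counts were 5 for gapmer 3 against control in bleomycin lungs and 5 for the difference in response with gapmer 3, and within 1.5 times of the count without it elsewhere. Calls over all genes in the comparisons named were then 3135 and 1115, against 2726 and 641 without the block. Arrays of 3 or 5 per group limit the precision: the 95% interval of a member had a median half-width of 0.24 for bleomycin against PBS and 0.34 for the difference in response.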

Other observations

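The PBS gapmer 1 samples differed among themselves in interferon-induced genes. Replicate 1 had the highest value of the group for 28 of the 36 members, replicate 2 for 8 and replicate 3 for 0. Replicate 1 also had the lowest RNA integrity number of all samples (8.5), and its part in these values was not tested. Cxcl9, by contrast, read 7.41, 9.28 and 6.94 in these samples and Cxcl10 read 8.48, 10.38 and 8.46, so that replicate 2, uninjured by its label, lay near the bleomycin control lungs (8.90 to 9.48 for Cxcl9). In bleomycin lungs with gapmer 1 the highest value lay on replicate 4 for 18 members and on replicate 5 for 9 of the 36. Without bleomycin gapmer 1 replicate 4 the lower members against the control gapmer numbered 6.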
